A study of Mus musculus with 35 samples.

Results

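Open chromatin at the promoters of cytoplasmic ribosomal protein genes was examined in hepatocyte nuclei of tumor-bearing and control mice. A region of the deposited table belonged here when its nearest annotated gene had an Rps or Rpl symbol with a number, was typed protein-coding and had its start site within 1000 bp. This rule uses names and distances and no measured value. It kept 181 of 177904 regions, at 72 genes, of which 28 encode small-subunit and 44 large-subunit proteins. They are set beside 30471 regions that lie equally close to the start sites of 13066 other protein-coding genes.

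ATAC-seq counts insertions of the Tn5 transposase, which enters DNA where nucleosomes leave it accessible. Each of the 35 libraries came from the liver of its own mouse, taken at zeitgeber time 9, that is 9 h after lights on. All mice carried CAG-Sun1/sfGFP with Albumin-Cre, which puts a GFP tag on the nuclear envelope of cells that have expressed albumin, so that hepatocyte nuclei can be captured (the INTACT method). The groups with a tumor were C26 pre-cachexia and C26 cachexia in BALB/c mice, 8025 cachexia in C57BL/6N mice, NC26 weight-stable tumor in BALB/c mice and MC38 weight-stable tumor in C57BL/6N mice. Each cohort had its own PBS-injected group of the same strain. Every group held 4 libraries except 8025 PBS, which held 3. Cachexia was defined in the labels by loss of more than 10% of body weight. Strain goes with cohort throughout, and all C26 libraries came from one numbered library series and all 8025 libraries from another.

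Cytoplasmic ribosomes are built from a small subunit, which decodes the mRNA, and a large subunit, which joins amino acids. Their proteins are made in near-equal amounts, mostly from single-copy genes that are active in every cell. Hepatocytes secrete much of the plasma protein and so need many ribosomes. Mammalian ribosomal protein mRNAs begin with a C followed by a run of pyrimidines, the 5' terminal oligopyrimidine (TOP) motif, through which mTORC1 and LARP1 control their translation.

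The letters of the promoters are shown first, since the regions are defined by their start sites. A RefSeq table of mm10 promoters (250 bases before to 50 after the start) matched 53 of the 72 genes by symbol, with the start within 2 bp of the authors' annotation for 50 of them. It also matched 10256 of the 13066 other genes. The core of the TOP motif was visible at the start itself. A C at the annotated first base followed by at least 4 pyrimidines stood at 10 of 53 ribosomal protein genes (18.9%) and at 2.10% of the other genes. Allowing that run to begin within 10 bases of the start gave 54.7% against 31.6%. The next lines give the 30 bases around the start at 7 of the 10 genes, 15 before it and 15 from it on, with the C and its pyrimidines in capitals; they show how much the length of the run varies, and each was read from RefSeq on the mm10 build.
Rps6, chr4:86857353-86857382, minus strand: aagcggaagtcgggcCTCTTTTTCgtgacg
Rps15a, chr7:118116133-118116162, minus strand: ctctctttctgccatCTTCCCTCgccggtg
Rps21, chr2:180257364-180257393, plus strand: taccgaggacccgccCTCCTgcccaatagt
Rpl14, chr9:120571502-120571531, plus strand: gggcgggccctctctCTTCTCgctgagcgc
Rpl28, chr7:4792950-4792979, plus strand: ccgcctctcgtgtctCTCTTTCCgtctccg
Rpl35, chr2:39005117-39005146, minus strand: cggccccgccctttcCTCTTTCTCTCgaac
Rpl38, chr11:114668565-114668594, plus strand: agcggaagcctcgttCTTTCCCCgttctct

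Of the motifs searched on both strands of the 300-base windows, the ETS core CCGGAAG differed most in share: 20 of 53 ribosomal protein promoters held it (37.7%), against 17.1% of the other promoters. The SP1 box GGGCGG was in 58.5% against 65.4%, the YY1-type AAGATGGC in 7.55% against 4.52%, and the NRF1 palindrome in 1.89% against 2.12%. TATAAA was in 7.55% against 7.09%, the E-box CACGTG in 9.43% against 10.4%, and the STAT motif TTCCNNGAA in 3.77% against 4.61%. None of these motifs contains another, and the median GC content was 57% against 61.3%. These are shares of letters and say nothing of occupancy. The next lines show 115 bases, 100 before the start and 15 from it on, at the genes of 5 of the regions called in C26 cachexia below for which the table held a sequence. Capitals mark an ETS core, read on either strand, or, in Rps19, an SP1 box read on the opposite strand.
Rps12, chr10:23787195-23787309, minus strand: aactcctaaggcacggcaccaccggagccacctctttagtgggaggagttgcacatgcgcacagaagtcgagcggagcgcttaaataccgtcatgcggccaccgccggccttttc
Rps7, chr12:28635939-28636053, minus strand: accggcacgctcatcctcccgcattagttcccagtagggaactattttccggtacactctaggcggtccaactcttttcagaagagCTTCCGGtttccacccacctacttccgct
Rps3a1, chr3:86142654-86142768, minus strand: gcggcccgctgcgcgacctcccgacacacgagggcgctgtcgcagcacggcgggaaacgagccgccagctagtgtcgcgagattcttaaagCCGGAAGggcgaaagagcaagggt
Rps10, chr17:27635230-27635344, minus strand: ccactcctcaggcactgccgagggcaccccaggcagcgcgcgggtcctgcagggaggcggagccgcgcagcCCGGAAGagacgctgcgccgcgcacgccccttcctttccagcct
Rps19, chr7:24884492-24884606, plus strand: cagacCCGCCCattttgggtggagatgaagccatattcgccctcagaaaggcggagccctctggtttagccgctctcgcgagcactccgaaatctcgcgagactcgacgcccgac

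Values below are tags in 400 bp around a region's centre, put by the authors on a scale of 10 M tags per library and here also divided by TMM factors of 0.80 to 1.25. Libraries held 11.3 to 23.8 M tags, apart from NC26 weight-stable tumor replicate 1 with 3.47 M. Of 6 hepatocyte marker genes 5 had a promoter region, with a summed signal of 552 to 891 over the libraries. The leukocyte markers (3) had no promoter region, and of 4 macrophage markers 1 had one, summing to 0 to 9.50; endothelial markers (1 of 3) summed to 4.15 to 14.9, stellate cell markers (1 of 3) to 6.71 to 25.9 and cholangiocyte markers (2 of 3) to 37.9 to 113.

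Of the 181 regions, 127 were annotated as promoter, 42 as intron, 6 as 5' UTR, 4 as exon and 2 as transcription termination site. For 24 regions the authors' annotation named another gene, often one that is transcribed from the same stretch: 9 of these were small nucleolar RNA genes, which sit in introns of ribosomal protein genes. Neighbouring regions overlap at 140 of the 181, so regions of 1 gene are not independent. For 71 regions every one of the 35 libraries had its own peak, and for 32 regions only 1 library did. For each gene the region with the highest mean over all libraries is called its primary region. The median primary region was centred at -33.5 bp from the start, against -39 bp at the other genes, and 59 of 72 (81.9%) lay within 150 bp, against 72.6% of the others.

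The primary regions had a median of 81.1 tags, against 71.3 at the other genes, and levels differed widely from gene to gene. Of the 72 genes, 43 lay above the median of the others and 5 in their highest 10%. Among the highest were Rps21 with a mean of 308 tags over the 35 libraries, Rpl27a with 262, Rpl37 with 257 and Rpl34 with 219. Their libraries ranged over 260 to 347 at Rps21 and 215 to 308 at Rpl27a, so these neighbours in the order overlapped. The lowest were Rpl32l with 10.5, Rpl4 with 13.0, Rpl9 with 13.7, Rps18 with 17.3 and Rps25 with 23.6. At Rpl9, Rps18 and Rps25 the primary region was centred at +317, +362 and +173 bp. The authors' annotation puts those 3 at the promoters of Lias, Vps52 and Trappc4, and that of Rpl4 at the promoter of Zwilch, so these levels cannot be assigned to one gene. Rpl32l is a gene copy whose 4 regions lay in its exon or at its end, so reads may be shared with near-identical copies and its values are uncertain. The median was 99.2 tags over the small-subunit genes and 70.3 over the large-subunit genes.

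**Figure D1:**
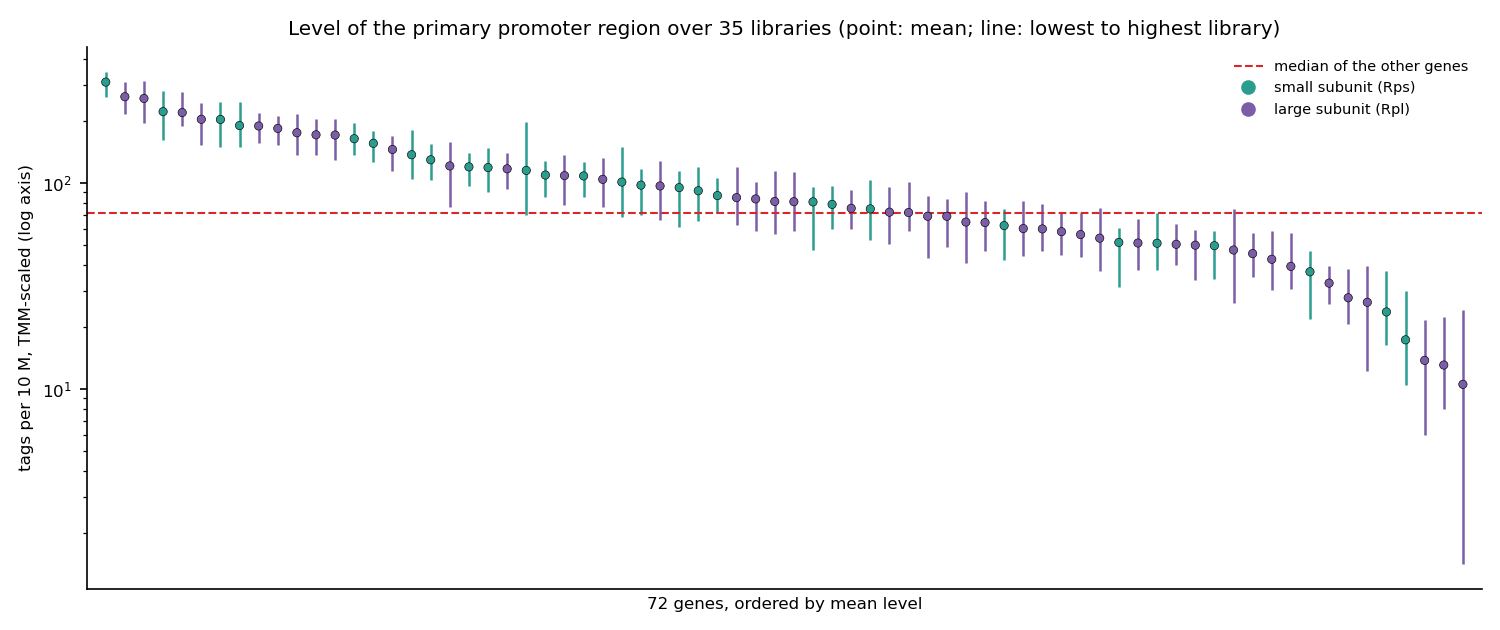
Mean signal of the primary promoter region of each of 72 ribosomal protein genes over 35 libraries, in TMM-scaled tags per 10 M on a log axis, ordered by level, with a line from the lowest to the highest library. Rps21 (308 tags) leads and Rpl32l (10.5 tags) is last; the dashed line is the median of the other genes (71.3 tags).

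Within groups these promoters varied little. The median coefficient of variation over replicates was 8.17% to 13.2% in the 9 groups, against 10.2% to 15.1% at the other genes' primary regions. The median of the 72 primary regions in a library averaged 76.1 ± 3.96 tags in C26 PBS, 75.2 ± 4.98 in C26 pre-cachexia and 83.4 ± 1.37 in C26 cachexia (SD, n = 4 each). It averaged 85.7 ± 4.18 in 8025 cachexia (n = 4) and 86.0 ± 3.72 in 8025 PBS (n = 3). In the weight-stable cohorts it was 75.7 ± 2.86 in NC26 tumor mice and 76.7 ± 4.59 in NC26 PBS mice, and 87.6 ± 1.51 in MC38 tumor mice and 89.4 ± 3.08 in MC38 PBS mice (n = 4 each). C26 cachexia libraries (82.4 to 85.4) thus lay above all C26 PBS libraries (71.4 to 80.0), and the other tumor groups overlapped their PBS group. The other genes' primary regions were separated in the same way, with medians of 70.8 to 73.1 in C26 cachexia libraries and 66.0 to 70.3 in C26 PBS libraries. The ratio of the ribosomal protein median to that of the other genes overlapped, at 1.13 to 1.21 in C26 cachexia and 1.07 to 1.14 in C26 PBS.

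In C26 cachexia 8 of 72 primary promoter regions were called, all higher, against 9.33% higher among the other genes. Signal was higher than in C26 PBS at 9 regions and lower at 1 of 181, by limma with Benjamini-Hochberg adjustment over 177251 regions at 0.05, which is the rule for every call here. In bulk samples, fewer open nuclei and less openness per nucleus cannot be told apart. Over all regions 14.0% were called (6.87% higher, 7.14% lower), and over the other promoter regions 6.44% were higher and 3.10% lower, so the members' share of higher calls is near the background. All 8 called primary regions belonged to small-subunit genes, at 8 of 28, with 0 of 44 large-subunit genes called. The split by subunit was not among the planned comparisons, and the difference between the subunits was not tested. Large-subunit genes were called in 10 of 20 alternative fits, at most 4 of them and most often Rpl10. The medians of the log2 changes did not differ in that way: 0.14 for small-subunit and 0.15 for large-subunit genes. Of the 44 large-subunit genes, 12 had an unadjusted p under 0.05. The small-subunit count at that threshold is not given, so this number does not compare the subunits. The change was positive at 60 of 72 primary regions, with a median of 0.15 against 0.08 at the other genes. All 4 cachexia libraries lay above all 4 PBS libraries at 11 of 72 (15.3%), against 14.4% of the other genes.

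Rps12, a protein of the small-subunit beak, had 149, 149, 127 and 149 tags in C26 cachexia, against 124, 104, 107 and 104 in C26 PBS. Every cachexia library was above every PBS library, although cachexia replicate 3 came close to PBS replicate 1. The log2 change was 0.38 (SE 0.0997, adjusted p = 0.0063, limma). Rps3a1 encodes eS1, which lines the mRNA exit of the small subunit. It had 102, 95.9, 104 and 90.6 tags in C26 cachexia, against 79.6, 95.9, 63.2 and 60.9 in C26 PBS, with PBS replicate 2 inside the cachexia range. Its log2 change was 0.41 (SE 0.117, adjusted p = 0.0125, limma). With NC26 PBS included, the 8 BALB/c PBS libraries ranged from 104 to 134 tags at Rps12 and from 60.9 to 106 at Rps3a1. Both ranges overlapped the C26 cachexia libraries, and at Rps3a1 an NC26 PBS library exceeded all of them.

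Rps7, needed for processing of the small-subunit rRNA, had 83.6, 87.4, 92.6 and 81.1 tags in C26 cachexia, against 79.6, 81.6, 59.4 and 47.3 in C26 PBS. PBS replicate 2 was above the lowest cachexia library, and the other PBS libraries lay below all of them. The log2 change was 0.39 (adjusted p = 0.0212, limma).

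Rps19, in which mutations cause Diamond-Blackfan anaemia in humans, was called at a pair of overlapping regions. Its primary region at -132 bp had 233, 225, 209 and 209 tags in C26 cachexia, against 196, 212, 172 and 152 in C26 PBS. The region at -512 bp had 162, 191, 195 and 167 in C26 cachexia, against 149, 165, 125 and 125 in C26 PBS. In both regions PBS replicate 2 overlapped the cachexia group, and the log2 changes were 0.27 (adjusted p = 0.0433, limma) and 0.34 (adjusted p = 0.0098, limma).

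Rps10 and Rps29, proteins of the small-subunit head, were also called. Rps10 had 125, 139, 122 and 128 tags in C26 cachexia, against 119, 116, 96.3 and 97.7 in C26 PBS, without overlap. Rps29 had 178, 207, 178 and 174 in C26 cachexia, against 155, 172, 149 and 149 in C26 PBS, again without overlap. With NC26 PBS included, the 8 BALB/c PBS libraries reached 119 tags at Rps10 and 178 at Rps29, so Rps29 then overlapped. The log2 changes of Rps10 and Rps29 were 0.26 (adjusted p = 0.0450, limma) and 0.24 (adjusted p = 0.0484, limma), both just inside the threshold. Just outside it stood the large-subunit genes Rpl10, with a log2 change of 0.37 (adjusted p = 0.0502), and Rpl13a, with 0.23 (adjusted p = 0.0702). Rpl10, whose yeast counterpart joins the large subunit late in its maturation, had 103, 81.7, 86.0 and 87.7 tags in C26 cachexia, against 79.8, 66.7, 57.5 and 73.6 in C26 PBS, and the groups did not overlap.

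**Figure D2:**
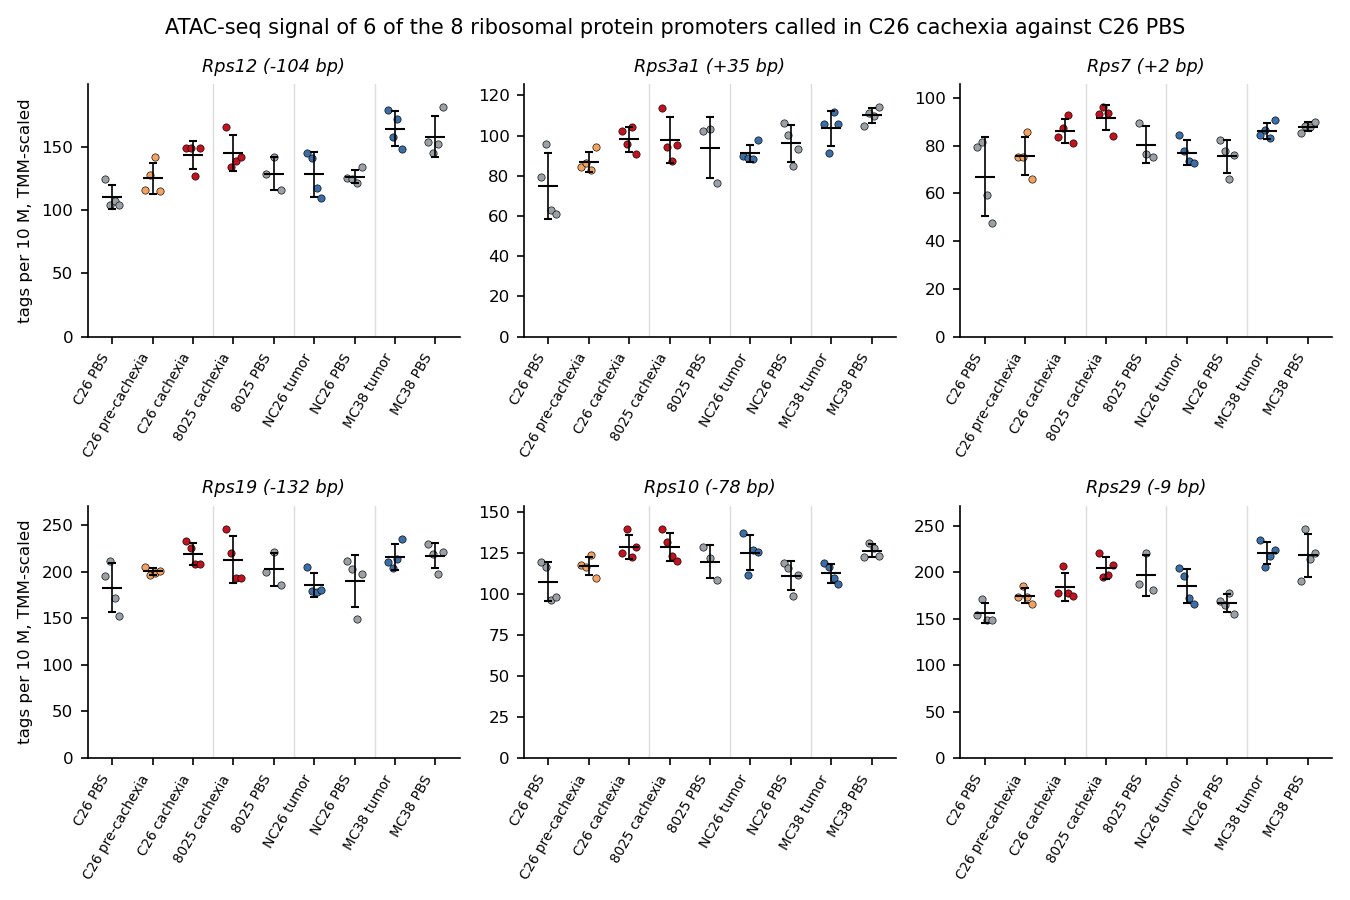
TMM-scaled tags per 10 M at the primary regions of 6 of the 8 genes called in C26 cachexia against C26 PBS, in all 9 groups (points: libraries; bars: mean and SD). At Rps12 the C26 cachexia libraries (127 to 149 tags) lie above the C26 PBS libraries (104 to 124); at the other cohorts the tumor and PBS libraries overlap in most panels.

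The one lower call lay away from a ribosomal start. The region at +484 bp of Rpl35a (chr16:33056798-33057198) is annotated as the promoter of Iqcg, which encodes a motile-cilium protein. It had 19.6, 19.8, 19.4 and 25.9 tags in C26 cachexia, against 30.0, 30.7, 31.6 and 31.997 in C26 PBS, without overlap, and the log2 change was -0.54 (SE 0.173, adjusted p = 0.0281, limma). With NC26 PBS included, the 8 BALB/c PBS libraries ranged from 19.96 to 31.997 tags there and overlapped the C26 cachexia libraries. The primary region of Rpl35a at +9 bp had 36.1, 38.04, 40.6 and 32.5 tags in C26 cachexia, against 34.9, 37.4, 38.2 and 35.9 in C26 PBS. The decrease at +484 bp therefore did not extend to the start of Rpl35a, where the log2 change was 0.004.

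The changes depended on distance from the start. Within 150 bp the median log2 change of the 72 member regions was 0.15, against 0.08 for other promoter regions at that distance. Between 150 and 400 bp it was 0.03 against 0.01 (61 member regions), and from 400 to 1000 bp it was -0.08 against -0.04 (48 member regions). The direction at each distance was that of the other promoters. The share of region tags that fell in promoters moved with this, at 39.9% to 40.6% in C26 cachexia libraries and 38.4% to 39.8% in C26 PBS libraries, and its part in the result was not tested beyond 1 fit: with that share as a covariate 7 member regions were called and the median at primary regions was 0.10.

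**Figure D3:**
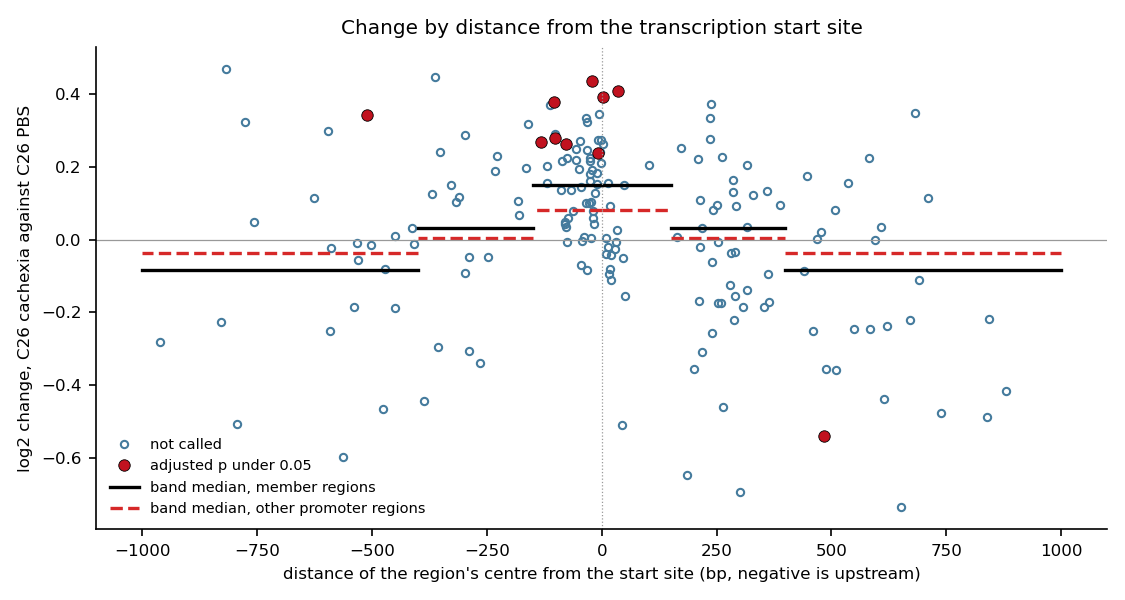
Log2 change between C26 cachexia and C26 PBS (vertical axis) of each of 181 member regions by the distance of its centre from the start site in bp (horizontal axis). Filled points passed the test, solid lines are medians of member regions in 3 distance bands (0.15, 0.03 and -0.08) and dashed lines those of other promoter regions (0.08, 0.01 and -0.04).

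The number of calls depended on single libraries, and leaving 1 out also makes a group smaller. It ran from 2 to 12, with 12 calls without C26 PBS replicate 2. Without C26 PBS replicate 4 there were 2 calls, without C26 PBS replicate 3 or C26 cachexia replicate 3 there were 3, and without C26 cachexia replicate 1 or 2 there were 6. With scaling to library totals in place of TMM, 1 region was called.

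Other genes of the translation machinery are described by the same counts, to be read against 9.33% higher, 2.16% lower and a median of 0.08 at the primary regions of genes that are not members. Of 14 translation factor and other TOP mRNA genes, 4 primary regions were higher in C26 cachexia and 0 lower (median log2 change 0.20). These were Npm1, a nucleolar chaperone (0.35), Eef1g, an elongation factor subunit (0.31), Eif4b, a helicase cofactor (0.27), and Tpt1 (0.23). Of 18 genes of mTORC1, MYC and TOP control, 6 were higher (median 0.22): Tsc1 (0.45), a brake on mTORC1, Rps6kb1 (0.32), the S6 kinase, Eif4ebp1 (0.29) and Eif4ebp2 (0.24), repressors of cap-dependent translation, Rheb (0.26), the activator of mTORC1, and Mxd1 (0.19), an antagonist of MYC. Genes that promote and genes that restrain translation are thus both in this set. The Eif4ebp1 region was centred at +952 bp, far from the start, and results of alternative fits are not given for these lists. The called genes named so far had 80.5 (Tsc1) to 416 tags (Tpt1) in C26 PBS. The median of the other genes over all libraries was 71.3 tags. The lists were not matched to the other genes in level, and the part of level in these counts was not tested. Of 23 ribosome biogenesis genes with a region, 1 was higher (Gnl3, 0.40; median 0.09), of 73 mitochondrial ribosomal protein genes 4 were higher (median 0.05), and of 36 proteasome subunit genes 2 were higher (median 0.10). The 7 ribosomal protein genes whose symbols the rule misses, such as Rplp0 and Rpsa, had 0 calls and a median of 0.19. No primary region of these lists was lower.

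C26 pre-cachexia gave no call at a ribosomal protein promoter. Against C26 PBS, limma called 0 of 181, against 1.26% of all regions, and edgeR and DESeq2 called 0 as well. An unadjusted p under 0.05, which is not a call, was found at 6 members in limma. The median log2 change of the primary regions was 0.03, against 0.01 at the other genes. The lowest p belonged to Rpl19 at +50 bp, which had 24.4, 15.8, 17.7 and 16.5 tags in C26 pre-cachexia, against 33.6, 21.9, 22.1 and 28.1 in C26 PBS (log2 change -0.48, adjusted p = 0.243, limma). Rps13, at -23 bp, had 97.7, 103, 85.5 and 96.8 in C26 pre-cachexia, against 116, 114, 105 and 109 in C26 PBS (log2 change -0.22, adjusted p = 0.341, limma). Rps13 did not overlap between the groups, while Rpl19 did, and neither passed the test. Rps19 at -512 bp had a log2 change of 0.21 (adjusted p = 0.364, limma).

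Between the C26 stages the primary regions were mostly higher in cachexia than in pre-cachexia, at 63 of 72, with a median log2 change of 0.12 against 0.08 at the other genes. None of the 181 regions was called by limma, edgeR or DESeq2, while limma called 5.38% of all regions. Without adjustment 11 members had a p under 0.05, which is not a call. At the 8 called genes the log2 changes of pre-cachexia against PBS lay between 0.10 and 0.24, below those of cachexia. Rps12, for example, had 0.18 (SE 0.0997) in pre-cachexia. The 8 genes were picked by their cachexia calls, and both comparisons share the C26 PBS libraries. These values therefore cannot show a graded change between the stages.

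The second cachexia cohort gave a different set. In 8025 cachexia against 8025 PBS, 1 member region was higher and 3 were lower of 181, against 12.4% of all regions (6.95% higher, 5.41% lower) and 7.16% of other promoter regions. All 4 lay outside the primary regions, of which 0 of 72 were called, with 3 at an unadjusted p under 0.05 and a median log2 change of 0.02 against -0.02 at the other genes. Rpl13a, part of the inflammation-linked GAIT complex in human cells, was higher at -828 bp, with 32.2, 23.1, 30.8 and 35.1 tags in 8025 cachexia, against 23.9, 15.5 and 16.6 in 8025 PBS. Replicate 2 of the cachexia group fell just below the highest PBS library, and the log2 change was 0.68 (SE 0.231, adjusted p = 0.0439, limma). With MC38 PBS included, the 7 C57BL/6N PBS libraries ranged from 15.5 to 32.3 tags there and overlapped most of the cachexia group. The highest of all 15 C57BL/6N libraries, at 48.5 tags, was an MC38 weight-stable tumor library, above every 8025 cachexia library.

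Rps9, whose yeast and bacterial counterparts affect decoding accuracy, was lower at +583 bp, in an intron. That region had 16.3, 31.6, 25.8 and 22.7 tags in 8025 cachexia, against 47.4, 34.6 and 47.5 in 8025 PBS, without overlap (log2 change -0.84, SE 0.275, adjusted p = 0.0379, limma). The 7 C57BL/6N PBS libraries, MC38 PBS included, ranged from 34.6 to 51.8 tags there. The remaining calls were the overlapping regions of Rpl32l at +300 bp (log2 change -1.17, adjusted p = 0.0115, limma) and +185 bp (-1.13, adjusted p = 0.0121, limma). The region at +300 bp had 1.63, 2.35, 1.23 and 4.10 tags in 8025 cachexia, against 7.53, 4.95 and 6.15 in 8025 PBS, a low signal at a copy with uncertain mapping. Without 8025 cachexia replicate 3 there were 0 calls, and without 8025 PBS replicate 1, 8025 cachexia replicate 1 or 8025 cachexia replicate 4 there were 2. Fits with library totals or with the promoter share also left 2.

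The 8 genes called in C26 cachexia were not called in 8025 cachexia. At 6 of them the log2 changes there were 0.17 at Rps12 (SE 0.108), 0.06 at Rps3a1, 0.19 at Rps7, 0.07 at Rps19, 0.11 at Rps10 and 0.06 at Rps29. The test of the difference between the C26 and 8025 effects called 0 of 181 regions by limma, edgeR and DESeq2. Limma called 0.102% of all regions. Without adjustment 6 members had a p under 0.05. For Rps12 that difference was 0.21 (SE 0.147, adjusted p = 0.725, limma). Rpl10 had 114, 87.5, 90.2 and 78.9 tags in 8025 cachexia, against 77.8, 75.2 and 70.0 in 8025 PBS, without overlap, and its log2 change was 0.30 (adjusted p = 0.173, limma). In 8025 cachexia 3 of 72 primary regions (4.17%) lay wholly above PBS, against 7.93% at the other genes. With MC38 PBS included, the 7 C57BL/6N PBS libraries reached 115 tags at Rpl10, above all 8025 cachexia libraries. In the related lists, 2 mitochondrial ribosomal protein genes were lower and 1 proteasome gene higher in 8025 cachexia, and none of the other lists had a call. With the list sizes given above, neither count exceeded the share at the other genes' primary regions, 3.97% lower and 3.05% higher.

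Weight-stable tumors gave no call. In NC26 tumor mice against NC26 PBS mice limma, edgeR and DESeq2 called 0 of 181, while limma called 0.188% of all regions. Without adjustment 9 members had a p under 0.05 in limma. That count is at a looser threshold than the 0.188%. The median log2 change of the primary regions was 0.004, against -0.002 at the other genes. The lowest p were at weak flanking regions. Rpl39 at -596 bp was listed at 0, 5.89, 8.74 and 4.26 tags in NC26 tumor mice, against 12.9, 8.29, 10.99 and 10.9 in NC26 PBS mice (log2 change -1.43, adjusted p = 0.0913, limma). Rpl36a at +620 bp was listed at 0, 2.14, 5.82 and 2.84 in NC26 tumor mice, against 8.91, 5.27, 9.16 and 5.18 in NC26 PBS mice (log2 change -1.39, adjusted p = 0.147, limma). Both regions overlapped between the groups, and the 0 in both belongs to replicate 1, the shallow library. Rpl30 at -531 bp had 16.3, 19.8, 24.2 and 19.3 in NC26 tumor mice, against 29.8, 30.1, 31.6 and 25.6 in NC26 PBS mice, without overlap (log2 change -0.54, adjusted p = 0.281, limma).

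In MC38 tumor mice against MC38 PBS mice 0 of 181 regions were called by limma, edgeR and DESeq2, while limma called 0.0186% of all regions. Without adjustment 3 members had a p under 0.05. The median of the primary regions was -0.05 (19 of 72 positive), against -0.05 at the other genes, and it was 0.006 with scaling to library totals and 0.007 with TMM factors from promoters alone. The lowest p belonged to Rpl31 at +489 bp (log2 change 0.59, adjusted p = 0.726), Rpl37a at +681 bp (-0.73, adjusted p = 0.753) and Rpl10 at +581 bp (-0.64, adjusted p = 0.756). Rpl31 had 15.3, 14.0, 12.1 and 14.9 tags in MC38 tumor mice, against 5.46, 8.19, 10.6 and 13.4 in MC38 PBS mice, so the groups overlapped.

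**Figure D4:**
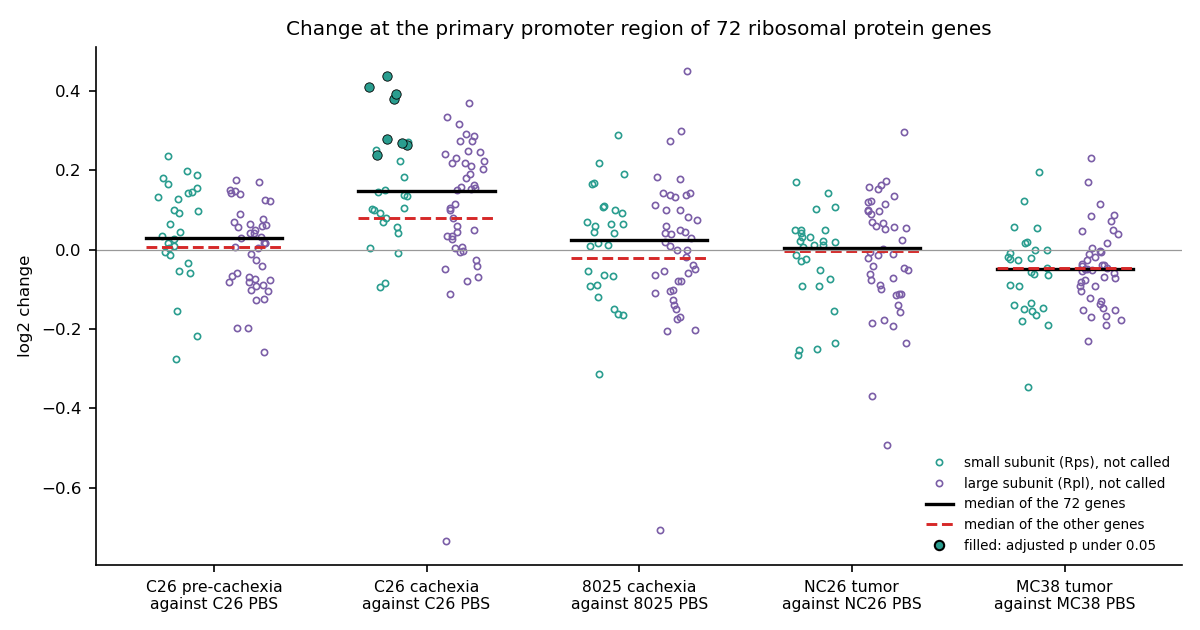
Log2 change at the primary promoter region of 72 ribosomal protein genes in each comparison against PBS, split by subunit; filled points passed the test, the solid line is the median of the 72 genes and the dashed line that of 13063 other genes. The C26 cachexia column holds all 8 filled points and the highest median (0.15).

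The difference between the C26 cachexia effect and the NC26 tumor effect, both in BALB/c mice, was called at 1 of 181 regions, against 2.14% of all regions. It was the Iqcg promoter region at +484 bp of Rpl35a (difference of log2 changes -0.94, SE 0.245, adjusted p = 0.0285, limma). In NC26 the direction was the other way, with 35.3, 36.4, 33.5 and 33.5 tags in tumor mice, against 28.5, 19.96, 27.9 and 28.8 in PBS mice (log2 change 0.40, adjusted p = 0.401, limma). This call was lost without NC26 weight-stable tumor replicate 1, NC26 PBS replicate 2, C26 PBS replicate 4 or C26 cachexia replicate 3. For Rps12 the difference was 0.37 (SE 0.141, adjusted p = 0.174, limma). The median difference over primary regions was 0.15, against 0.09 at the other genes. Between the 8025 cachexia and MC38 tumor effects 0 of 181 regions were called by limma, edgeR and DESeq2, while limma called 1.70% of all regions. Without adjustment 4 members had a p under 0.05.

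Genes of ribosome surveillance and specialised copies had no call against PBS at their primary regions. Rpl5 and Rpl11, which bind Mdm2 and stabilise p53 when ribosome assembly fails, had log2 changes in C26 cachexia of 0.15 and -0.07, and in 8025 cachexia of 0.18 and 0.14. Rps6, the target of S6 kinase, had 0.10 in C26 cachexia, -0.09 in 8025 cachexia, -0.25 in NC26 tumor mice and -0.06 in MC38 tumor mice. Rps27a, made as a fusion with ubiquitin, had 0.07, -0.17, -0.23 and -0.15 in those same comparisons. None passed the test (lowest adjusted p = 0.41, limma). Among paralogs, Rpl22l1 had a level of 171 tags, Rps27l of 97.4 and Rpl7l1 of 50.3, and their log2 changes in C26 cachexia were 0.05, 0.04 and 0.01. Rpl3l, Rpl10l and Rpl39l had no region within 1000 bp of a start, and Rps4l was typed as a pseudogene.

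Most calls at these promoters came between strains, in a comparison added after the data were seen. In BALB/c PBS mice (8, of C26 and NC26) against C57BL/6N PBS mice (7, of 8025 and MC38), 4 member regions were higher and 27 lower of 181, against 6.45% higher and 6.99% lower of all regions, 13.4% together. Other promoter regions also leaned lower in BALB/c, with 2.82% higher and 9.11% lower. Of the primary regions 1 was higher and 21 were lower of 72, against 3.57% higher and 11.8% lower at the other genes. The median log2 difference was -0.18 against -0.06, and it lay between -0.23 and -0.12 under the other scalings. Strain, cohort and tumor-cell experiment cannot be told apart here. The comparison of the NC26 and MC38 PBS groups alone, which share their library series, gave 4 higher and 17 lower of 181 (4.16% and 4.99% of all regions, 9.15% together). Among other promoter regions 1.53% were higher and 7.08% lower. The median over primary regions was -0.19, against -0.10 at the other genes.

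Rps23, a protein of the decoding centre, differed most in p. Its region at -318 bp had 77.7 to 106 tags with a median of 79.9 in BALB/c PBS mice, against 148 to 197 with a median of 154 in C57BL/6N PBS mice. The difference was -0.93 (SE 0.088, adjusted p = 8.13e-12, limma), and over all 35 libraries the BALB/c range (69.7 to 106) still lay below the C57BL/6N range (123 to 197). The region at +9 bp of the same gene had medians of 71.5 and 66.0 tags in BALB/c and C57BL/6N PBS mice, with a difference of 0.24 (adjusted p = 0.169, limma), so the gap lay upstream of the start. The region is 400 bp wide. Bases -250 to -101 of the reference are shown, which lie mostly inside its downstream part. They hold none of the searched motifs, and its upstream part is beyond the window shown.
Rps23, chr13:90922872-90923021, plus strand: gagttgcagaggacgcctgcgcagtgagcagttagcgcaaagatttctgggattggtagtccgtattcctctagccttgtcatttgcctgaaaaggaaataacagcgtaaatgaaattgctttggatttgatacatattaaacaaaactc

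Rps9 at -76 bp had 52.6 to 67.8 tags (median 64.2) in BALB/c PBS mice, against 80.5 to 96.2 (median 93.5) in C57BL/6N PBS mice. The large-subunit gene Rpl21, at -4 bp, had 40.7 to 57.1 (median 53.8) in BALB/c PBS mice, against 62.4 to 90.7 (median 79.3) in C57BL/6N PBS mice. Neither overlapped between the strains, with log2 differences of -0.51 (adjusted p = 1.81e-05, limma) and -0.65 (adjusted p = 1.31e-05, limma). Rps29 at -9 bp had 149 to 178 in BALB/c PBS mice, against 181 to 247 in C57BL/6N PBS mice, and Rps6 at -27 bp had 71.0 to 114 in BALB/c PBS mice, against 112 to 149 in C57BL/6N PBS mice. Rps29 did not overlap between the strains and Rps6 overlapped narrowly, with log2 differences of -0.38 (adjusted p = 3.75e-05, limma) and -0.50 (adjusted p = 4.67e-05, limma). All the higher regions belonged to Rpl32l: at +651 bp it had 10.5 to 24.2 tags in BALB/c PBS mice, against 2.08 to 6.00 in C57BL/6N PBS mice (log2 difference 2.52, adjusted p = 9.09e-11, limma). Reads of both strains were placed on one reference, and the part of mapping in these differences was not tested.

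**Figure D5:**
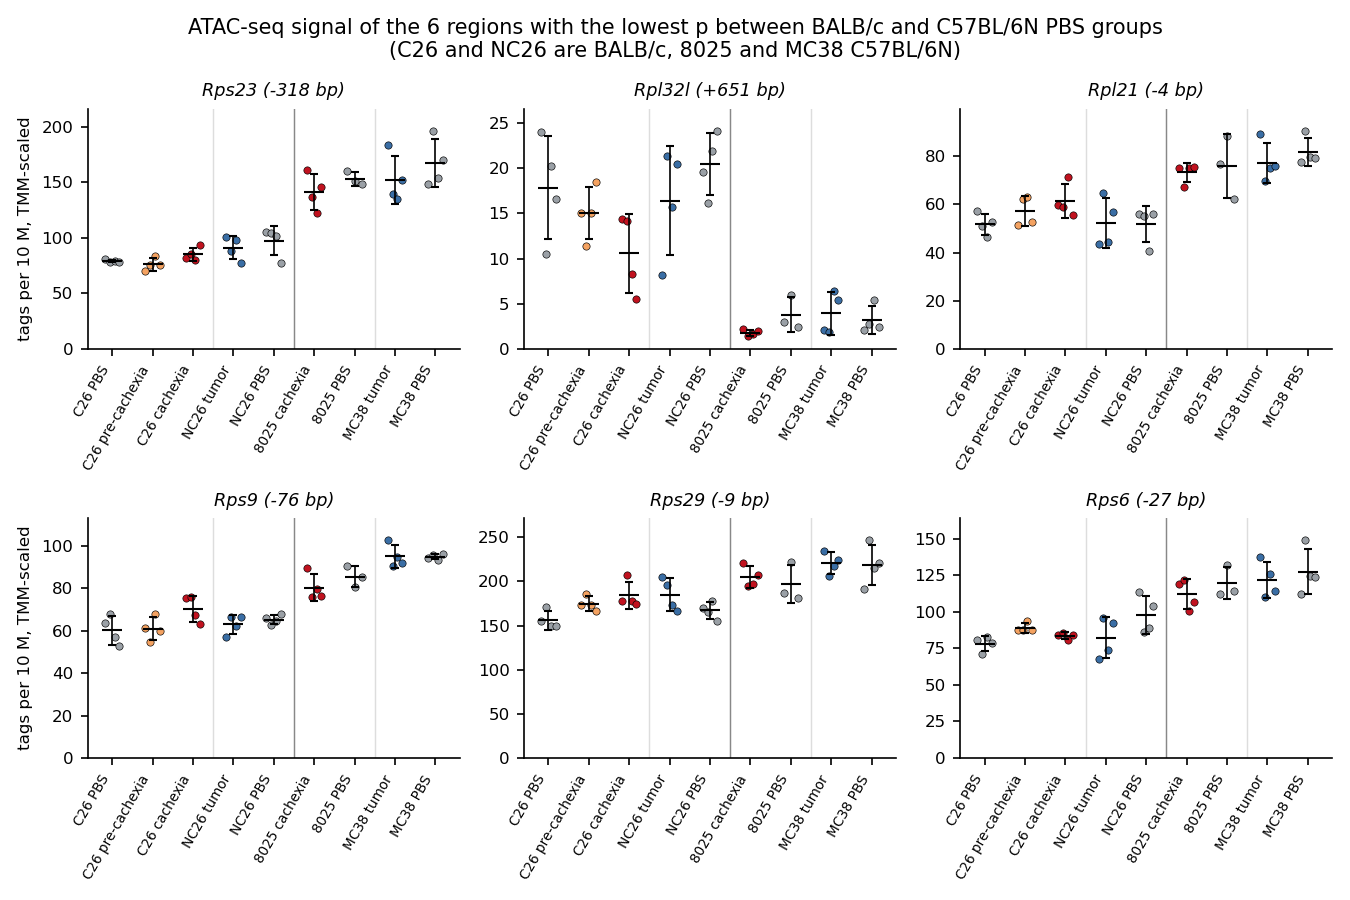
TMM-scaled tags per 10 M at the 6 regions with the lowest p between strains, with the BALB/c cohorts C26 and NC26 left of the darker line and the C57BL/6N cohorts 8025 and MC38 right of it (points: libraries; bars: mean and SD). Rps23 at -318 bp lies between 69.7 and 106 tags in all BALB/c libraries and between 123 and 197 in all C57BL/6N libraries; Rpl32l at +651 bp runs the other way.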

How the data were processed

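The submitters' processing notes name BWA 0.7.5a-r405, SAMtools and HOMER, with mm10 as the build; duplicate handling is not given in the sources used here. Per the file headers, the deposited unit is a signal, tags per region of 400 bp after the authors' scaling to 10 M tags. Multiplying back gave whole read ends for 100% of values (within 0.05). Members and lists were chosen with earlier results of these data known.

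Values were scaled with TMM (edgeR 4.0.16), regions with few read ends removed (filterByExpr, minimum 10, total 15; 653 removed, 177251 tested, all 181 members kept), and log2(value + 1) fitted with limma 3.58.1 (trend, robust; R 4.3.3) over 9 groups with library series as covariate. Fold changes are on that scale and understate low regions. Adjusted p-values are Benjamini-Hochberg over all regions of a comparison. edgeR and DESeq2 1.42.0 on the recovered read ends were alternatives, and the scripts were tested on simulated data. By the labels every library is a separate animal. Named were called members (up to 10 per direction), otherwise the 3 lowest p, the 5 highest and lowest levels, and Rps6, Rpl5, Rpl11, Rpl13a, Rps19, Rps27a, Rpl10 and paralogs; some genes under this rule are not reported here. The strain comparison, the comparison of NC26 and MC38 PBS mice, and leaving out the shallow library everywhere were added after the data were seen. Counts of Tn5 ends are not independent molecules, and depth limits weak regions most.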

Additional observations from a re-analysis of the deposited data

Results flagged for a closer look

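Within groups of 4 libraries, 144 sets of values (of 17 named regions and of the median over primary regions) were examined for a library far from the other 3, and 14 (9.72%) were found. Chance gives about 1 in 20 for independent sets. These sets share libraries, some regions overlap and the regions were picked by calls in these data, so an excess over chance cannot be read from this. In the C26 groups these were Rps12 in C26 PBS replicate 1 (124 tags, the others 104 to 107), Rps12 in C26 cachexia replicate 3 (127, the others 149), Rps29 in C26 cachexia replicate 2 (207, the others 174 to 178), the Rpl35a region at +484 bp in C26 cachexia replicate 4 (25.9, the others 19.4 to 19.8), Rps6 in C26 pre-cachexia replicate 3 (94.1, the others 87.3 to 87.9) and the Rpl32l region at +300 bp in C26 pre-cachexia replicate 4 (9.25, the others 6.95 to 7.14).

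In the NC26 groups they were Rps19 at -132 bp in weight-stable tumor replicate 1 (205, the others 178 to 181), Rps3a1 in weight-stable tumor replicate 4 (97.7, the others 88.3 to 89.7), Rps23 at -318 bp in PBS replicate 4 (77.7, the others 102 to 106), Rpl21 in PBS replicate 3 (40.7, the others 55.0 to 56.1) and the Rpl35a region at +484 bp in PBS replicate 2 (19.96, the others 27.9 to 28.8). In the C57BL/6N groups they were Rpl21 in MC38 PBS replicate 2 (90.7, the others 77.6 to 79.7), Rpl21 in 8025 cachexia replicate 2 (67.4, the others 75.1 to 75.6) and Rps19 at -512 bp in MC38 weight-stable tumor replicate 3 (164, the others 153 to 154). The effects of C26 cachexia and NC26 tumor differed at the Rpl35a region at +484 bp by -0.94 on the log2 scale in the test of the difference.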

How the results depend on the processing

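Of 181 regions, 10 were called in C26 cachexia against PBS, 1 with library totals and 7 to 12 under the other alternatives that kept all libraries. Of the 4 calls in 8025 cachexia, 1 lay within 250 bp of a start and 0 in primary regions and 2 were called with library totals or the promoter share. The 1 call in the difference of C26 and NC26 effects became 0 with library totals, within 250 bp or in primary regions. In C26 cachexia against pre-cachexia the fit on that cohort alone gave 1 call. Between strains there were 31 calls, 19 with library totals, and between NC26 and MC38 PBS mice 21, with 13 in primary regions and 13 with the promoter share. The causes were not tested. Leaving out 1 library gave 2 to 12 calls in C26 cachexia, 0 in pre-cachexia, 0 to 2 between the stages, 0 to 5 in 8025, 0 to 2 in NC26, 0 in MC38, 0 to 3 for C26 minus NC26, 0 for the other differences, 22 to 35 between strains and 13 to 26 between NC26 and MC38 PBS mice. For 125 values of single regions the alternatives gave 2592 values in all, of which 229 lost a call, 15 gained one and 0 reversed while called.

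No pairing by replicate number was seen: over 23 same-numbered pairs the correlation of deviations was -0.155 to 0.077, with 0 over 0.1. It was taken over all tested regions, most of them weak (median 10.9 tags), and differently numbered pairs were not compared. The check therefore cannot exclude pairing. With the number as a replicate block there were 11 calls in C26 cachexia, 0 in 8025 cachexia and 0 for C26 minus NC26, and the other counts against PBS stayed at 0. In 8025 the block sets aside cachexia replicate 3, which has no PBS library of its number. Leaving out that library alone also gave 0 calls, so the 0 cannot be read as an effect of pairing. Depth limits weak flanking regions most.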
